A study of Mus musculus with 2 samples.

Results

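The Mir26 family (Mir26a-1, Mir26a-2 and Mir26b) and the Mir101 family (Mir101a and Mir101b) were described in newborn mouse liver. These 5 loci were picked by gene symbol from the 1973 microRNA genes of the count table, and all 5 were found. The data are microRNA sequencing libraries made from liver total RNA of 2 B6NCrl mouse pups on postnatal day 0, and they hold inserts shorter than 30 bases. Replicate 1 is the liver of pup 1 and replicate 2 that of pup 2, both pups came from the same pregnant mouse, and their sex was not collected. Neither pup carried a treatment or an altered allele, and there is no second tissue or age, so the comparisons were between loci and between the pups.

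MicroRNAs are short RNAs cut from a hairpin, which guide Argonaute proteins to messenger RNAs that match bases 2 to 8 of the microRNA, the seed. The Mir26 and Mir101 families are known as repressors of Ezh2, the catalytic subunit of Polycomb repressive complex 2, which silences genes by methylating histone H3. In liver both families are known as brakes on growth that are often reduced in hepatocellular carcinoma, and the Mir26 genes lie in introns of the small phosphatase genes Ctdsp1, Ctdsp2 and Ctdspl, whose products act on the retinoblastoma protein and on RNA polymerase II.

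The guide arms are shown first, because they set which reads can be told apart. They are the RefSeq sequences (GRCm38.p6, the assembly also called mm10), found for all 5 loci, and capitals mark the seed.
miR-26a-5p (Mir26a-1 and Mir26a-2): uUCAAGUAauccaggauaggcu
miR-26b-5p (Mir26b): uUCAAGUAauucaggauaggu
miR-101a-3p (Mir101a): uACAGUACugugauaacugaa
miR-101b-3p (Mir101b): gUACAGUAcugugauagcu

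All Mir26 guide arms carried the seed UCAAGUA, and no other microRNA arm in the RefSeq table had it. Mir26a-1 and Mir26a-2 encode the same 22 bases of miR-26a-5p. Counted from 1 at the 5′ end of miR-26a-5p, miR-26b-5p differed from it by C11U and C21U, both outside the seed. The Mir101 arms were offset by 1 base: miR-101b-3p starts 1 base earlier, so its seed is UACAGUA and that of miR-101a-3p is ACAGUAC. Neither seed was found in another arm of the table. Over the 18 bases that the Mir101 arms have in common, they differed by A16G alone, counted from the 5′ end of miR-101a-3p. A related locus, Mir101c on chromosome 9, is annotated with an arm of 19 bases that lies whole inside miR-101a-3p; it was not among the table's genes and its level was not analysed here.

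The passenger arms of the Mir26a loci are shown because they are among the parts of the hairpins by which those loci differ.
miR-26a-1-3p (Mir26a-1): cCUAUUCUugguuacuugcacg
miR-26a-2-3p (Mir26a-2): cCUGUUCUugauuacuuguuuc

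The nearest match of miR-26a-1-3p in the hairpin of any other locus had 6 mismatches, and that of miR-26a-2-3p had 4. Mir26a-1 and Mir26a-2 share a stretch of 25 bases that covers miR-26a-5p whole. Mir26b shares at most 11 bases in a row with either of them. Mir101a and Mir101b share a stretch of 20 bases that ends inside their 3p arms. Among windows of 20 bases within 2 bases of miR-26a-5p, 5 of 7 were also in the hairpin of the other Mir26a locus, against 0 of 6 for miR-26b-5p, 0 of 6 for miR-101a-3p and 0 of 4 for miR-101b-3p. Reads that mapped to several places are on no gene in these files, so a read of miR-26a-5p without further bases cannot be counted at either Mir26a locus. The counts cover whole hairpins and do not tell the arms apart.

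**Figure D1:**
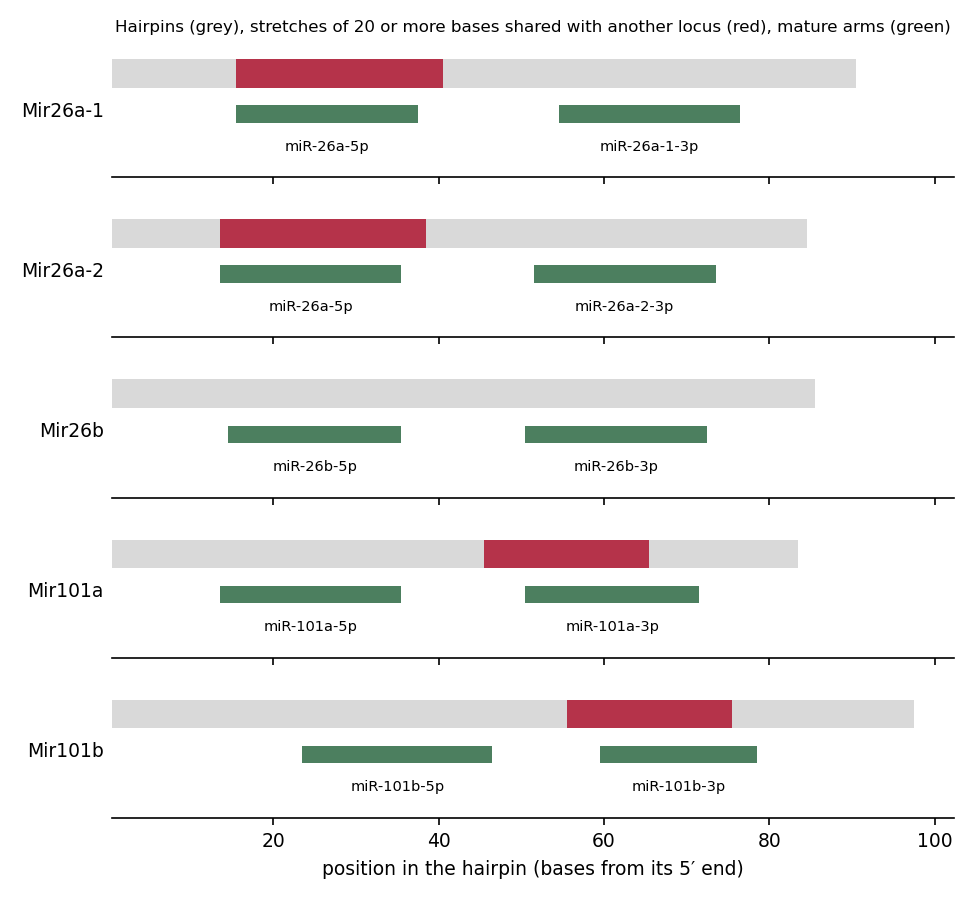
Each grey bar is a hairpin, drawn in bases from its 5′ end, with mature arms in green and stretches of 20 or more bases that also occur in another microRNA hairpin in red. The red stretch covers all of miR-26a-5p in Mir26a-1 and Mir26a-2, is absent from Mir26b, and covers part of the 3p arm in Mir101a and Mir101b.

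The loci lie apart from each other, and each lies inside another gene (mm10, gene models of GENCODE M21). Mir26a-1 (ENSMUSG00000065513.1) is on the plus strand at chr9:119031796-119031885, in an intron of all 3 Ctdspl transcripts that span it. Mir26a-2 (ENSMUSG00000065430.1) is on the plus strand at chr10:126995530-126995613, in an intron of Ctdsp2. Mir26b (ENSMUSG00000065468.1) is on the plus strand at chr1:74394310-74394394, in an intron of both Ctdsp1 transcripts that span it. Mir101b (ENSMUSG00000065556.1) is on the plus strand at chr19:29135279-29135375, in an intron of both transcripts that span it of Rcl1, a gene of ribosomal RNA processing. Mir101a (ENSMUSG00000065451.1) differs in that it lies in an exon, on the minus strand at chr4:101346945-101347027 in the non-coding transcript E130102H24Rik. All hosts run on the strand of their microRNA. The hosts are not microRNA genes and their own expression was not analysed here. Only Mir26a-2 had another annotated microRNA gene within 10 kb, Mir546 at 2.83 kb, which had 0 counts in both libraries.

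Replicate 1 had 3422622 counts on the strand of microRNA genes and replicate 2 had 4538427. Levels are counts per 1000000 of these totals (CPM), not divided by hairpin length, given with exact Clopper-Pearson intervals at 95% that cover counting error only, since copies made by PCR are not independent molecules. The limit set by a count of 0, which is 3 counts of the total, was 0.877 CPM for replicate 1 and 0.661 CPM for replicate 2. Hepatocyte markers (4 of 4 listed genes in the table) summed to 354115 and 366157 CPM, so the liver label was met. The 5 neural markers in the table summed to 0.292 CPM in replicate 1 and had 0 counts in replicate 2. They are loci of Mir124a and Mir9, each with several loci in the list. Whether their reads were left out for mapping to several places was not tested, so their low sum was not used for the label. In a whole liver, more cells of a type and more RNA per cell cannot be told apart.

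By the reads that could be placed, Mir26b was 1 of the most abundant microRNA genes in the liver, and Mir101b stood in the same upper range. Reads that mapped to several places are on no gene, so levels and ranks leave them out. Mir101a, Mir26a-2 and Mir26a-1 were counted at far lower levels. Mir26b was read 140865 times in replicate 1 and 167633 times in replicate 2, which is 41157 CPM (40947 to 41368) and 36936 CPM (36763 to 37110). It ranked 4 by CPM in each library and took 4.12% and 3.69% of all microRNA counts, a mean of 3.90% ± 0.298 (SD, n = 2). Mir101b had 64868 and 77512 counts, or 18953 CPM (18809 to 19098) and 17079 CPM (16960 to 17199). It ranked 8 in replicate 1 and 10 in replicate 2, with 1.80% ± 0.132 of the counts (n = 2).

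Mir101a was read 667 times in replicate 1 and 792 times in replicate 2, which is 195 CPM (180 to 210) and 175 CPM (163 to 187), and ranked 151 by mean level. Mir26a-2 had 165 and 177 counts, or 48.2 CPM (41.1 to 56.2) and 39.0 CPM (33.5 to 45.2), and ranked 206. Mir26a-1 had 33 and 45 counts, or 9.64 CPM (6.64 to 13.5) and 9.92 CPM (7.23 to 13.3), and ranked 254. The order Mir26b, Mir101b, Mir101a, Mir26a-2, Mir26a-1 was the same in both pups, and no value of 1 locus overlapped that of another. For the Mir26a loci, and possibly for Mir101a, this is an order of the reads that could be placed, not of the microRNA made. All 5 loci had 0 counts on the opposite strand. Their summed share of the library was 6.04% in replicate 1 and 5.42% in replicate 2.

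**Figure D2:**
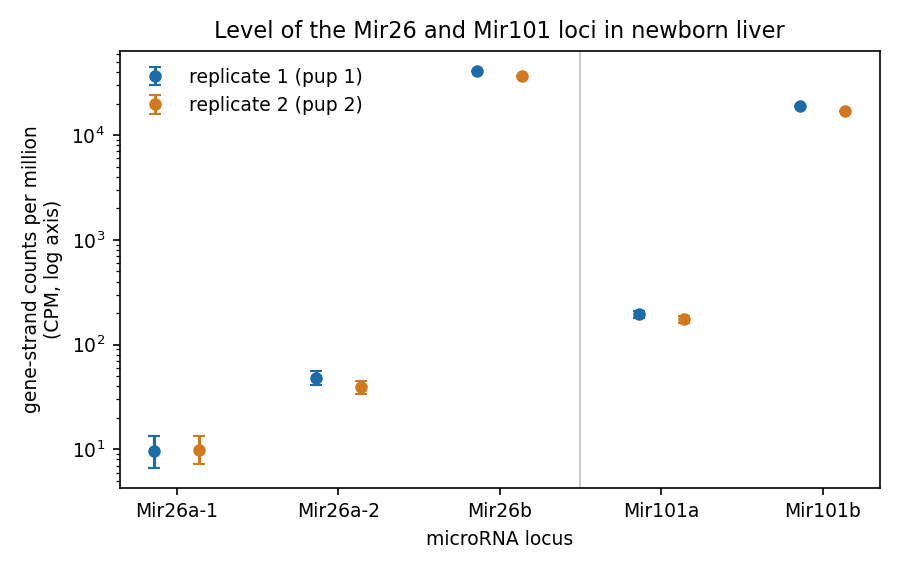
CPM of each locus on a log axis, 1 point per pup with its exact 95% interval for counting error; the intervals of Mir26b and Mir101b are narrower than the points. Mir26b at 41157 and 36936 CPM and Mir101b at 18953 and 17079 CPM stand far above Mir101a, Mir26a-2 and Mir26a-1 in both pups.

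In each family 1 locus held nearly all the reads that could be placed. Reads of miR-26a-5p without further bases are left out, so the Mir26 shares do not measure miR-26a against miR-26b. Mir26b made up 99.86% of the Mir26 counts in replicate 1 (99.84 to 99.88) and 99.87% in replicate 2 (99.85 to 99.88). Mir26a-2 held 0.117% (0.0998 to 0.136) and 0.105% (0.0905 to 0.122). Mir26a-1 held 0.0234% (0.0161 to 0.0329) and 0.0268% (0.0196 to 0.0359). In the Mir101 family, Mir101b held 98.98% (98.90 to 99.06) and 98.99% (98.92 to 99.06), and Mir101a held the remaining 1.02% and 1.01%. The intervals of each locus overlapped between the pups. The shares were compared between the libraries with two-sided Fisher exact tests, adjusted over 4 tests by the Benjamini-Hochberg method. The adjusted p was 0.762 for Mir26a-1, for Mir26a-2 and for Mir26b, and 0.916 for Mir101a, so none of the 4 tests passed the threshold of 0.05.

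Mir26b had 711 times the counts of the Mir26a loci together in replicate 1 (619 to 822) and 755 times in replicate 2 (662 to 865), a mean of 733 ± 30.9 (SD, n = 2). Since reads of miR-26a-5p are left out at both loci, this ratio gives no measure of miR-26a against miR-26b. Reads that mapped to several places numbered 1520712 in replicate 1 and 2044197 in replicate 2, which is 10.8 and 12.2 times the Mir26b counts. How many of them were miR-26a-5p is not in these files. Between the Mir26a loci, Mir26a-2 had 5.00 times the counts of Mir26a-1 in replicate 1 (3.42 to 7.50) and 3.93 times in replicate 2 (2.82 to 5.58). Mir101b had 97.3 times the counts of Mir101a in replicate 1 (90.1 to 105) and 97.9 times in replicate 2 (91.3 to 105), or 97.6 ± 0.435 (n = 2). The arms behind this ratio differ by 1 base over their common stretch, and the number of mismatches that the alignment allowed is not given in the sources used here. Mir101a also shares 19 bases in a row with Mir101c, and whether reads of miR-101a-3p were left out because they mapped there or elsewhere in the genome was not tested. The Mir101a counts, its share of 1.02% and 1.01% and the ratio of 97.6 therefore describe only the reads placed at each locus.

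Across the families, the Mir26b level was 2.17 times that of Mir101b in replicate 1 (2.15 to 2.19) and 2.16 times in replicate 2 (2.14 to 2.18), a mean of 2.17 ± 0.00629 (SD, n = 2). The pups thus differed less in this ratio than its counting interval is wide. With 2 pups, the smallest two-sided p of an exact sign-flip permutation test is 0.5, so these ratios are given per pup and without a test. Each ratio was written with the higher locus first, so its values above 1 in both pups only repeat the order given above. In the order of all genes by mean level, Mirlet7g (41444 and 41129 CPM) stood just above Mir26b, and their ranges over the pups overlapped. Within each library Mirlet7g ranked 3 and Mir26b ranked 4. Mir21a (35733 and 29941 CPM) stood just below Mir26b without overlap. Mir101b was not separated from its neighbours Mir411 (18348 and 22290 CPM) and Mir99a (17120 and 17416 CPM). The neighbours of Mir101a, Mir26a-2 and Mir26a-1 in this order overlapped them as well.

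The gene most alike to each locus was the one with the smallest summed difference in log2(CPM + 1) over the 2 libraries. It was Mirlet7g for Mir26b (a sum of 0.17), Mir99a for Mir101b (0.17), Mir350 for Mir101a (0.10), Mirlet7c-2 for Mir26a-2 (0.17) and Mir19b-1 for Mir26a-1 (0.16). Mirlet7c-2 and Mir19b-1 each have an arm that also lies in the hairpin of another locus, as the Mir26a loci do, while Mirlet7g, Mir99a and Mir350 have none. Over 2 libraries this measure describes little more than the level.

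The pups were then compared to see how far the loci moved between livers. Mir26b and Mir101b were both slightly lower in replicate 2, by nearly the same amount, and Mir101a had a log2 ratio of the same size that did not pass the test. Each gene with at least 10 counts over both libraries was compared with a two-sided exact binomial test on its counts, with Benjamini-Hochberg adjustment over 390 genes. This test speaks of counting error between these 2 libraries and of no condition. The log2 ratio of replicate 2 to replicate 1 was -0.16 for Mir26b (exact 95% interval -0.17 to -0.15, adjusted p = 2.36e-194), so its CPM was 1.11 times as high in replicate 1. It was -0.15 for Mir101b (-0.17 to -0.14, adjusted p = 1.79e-83). Mir101a had -0.16 (-0.31 to -0.01, adjusted p = 0.107 by the same exact test), Mir26a-2 had -0.31 (-0.62 to 0.01, adjusted p = 0.157 by the exact test) and Mir26a-1 had 0.04 (-0.64 to 0.73, adjusted p = 1 by the exact test). For Mir26a-1 and Mir26a-2 the intervals are wide, and a difference of the size seen at Mir26b was not detectable at this depth.

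Of the 5 loci, 2 were called in either direction, where 30.3% of the 390 genes were called, and the same 2 were called lower in replicate 2, where 14.4% of all genes were. Mir26b and Mir101b are among the 50 genes with 10000 or more counts in each library, a limit chosen after the data were seen. Of these 50 genes 78.0% were called in either direction and 50.0% were called lower in replicate 2, and 17 of the 50 had a larger log2 ratio in size than Mir26b. The median log2 ratio of the 5 loci was -0.16, and that of all 390 genes was 0.00. edgeR's negative binomial exact test counts the common spread between the pups as noise. It called 0 of the 5 loci (0 at an unadjusted p under 0.05) and 0.513% of all genes. Its dispersion comes from the difference between these same 2 libraries, so a difference of the usual size between them cannot be called, and the count of 0 says only that the loci did not stand out from that spread. Of the marker sums, those of leukocytes (2 of 3 listed genes in the table) went from 8608 CPM in replicate 1 to 7901 CPM in replicate 2, and those of erythroid cells from 5251 to 5096 CPM. The hepatocyte sums (given above) and those of muscle, endothelial and mesenchymal markers were higher in replicate 2. Muscle went from 136 to 1008 CPM, endothelial from 65978 to 69174 CPM and mesenchymal from 14281 to 15080 CPM. Genes within a sum did not always move together. Mir122 rose from 342309.5 to 354939.5 CPM, while the hepatocyte genes Mir192, Mir194-1 and Mir194-2 were lower in replicate 2. Mir144 rose and Mir451a fell among erythroid genes, and Mir150 rose and Mir223 fell among leukocyte genes. The sums therefore show no joint shift of hepatocyte, erythroid or leukocyte genes. The part of these genes in the lower share of Mir26b and Mir101b in replicate 2 was not tested.

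**Figure D3:**
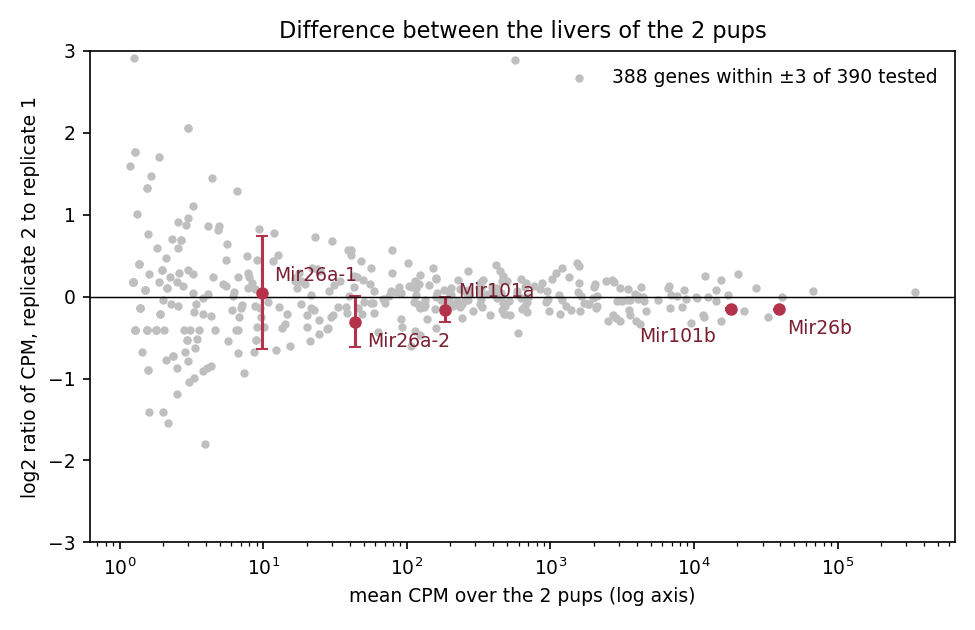
The log2 ratio of CPM in replicate 2 to replicate 1 against the mean CPM, for the 388 of 390 tested genes that lie within 3 of 0 (grey), and for the 5 loci with exact 95% intervals (red). Mir26b and Mir101b sit just below 0 at -0.16 and -0.15, with Mir101a at -0.16, within the scatter of genes of like level.

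Other microRNAs reported to repress Ezh2 were set beside the Mir26 and Mir101 loci, from a list that holds the let-7 family with Mir98, and Mir124a, Mir138, Mir144, Mir199a, Mir214 and Mir217. Of 22 listed genes, 20 were in the table and 16 had at least 10 counts in both libraries. The other two, Mirlet7e and Mirlet7f-1, were not analysed here. Mirlet7g was the only one counted above Mir26b by mean level (41287 ± 223 CPM, n = 2), and the only one above Mir101b. Mirlet7i followed with 15528 ± 1492 CPM, Mirlet7d with 6653 ± 403 CPM and Mir98 with 3044 ± 157 CPM. All of these belong to the let-7 family, known as a brake on proliferation.

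Below them the list overlapped the weaker loci: 8 of its genes stood above Mir101a, 11 above Mir26a-2, and 7 below Mir26a-1, among them the 3 neural Mir124a loci at 0 counts in both libraries. The list as a whole took 7.06% and 7.35% of the microRNA counts, against 6.04% and 5.42% for the 5 loci. Some let-7 genes, such as Mirlet7c-2, have an arm that lies in another hairpin too, and their counts leave out reads in the way those of Mir26a do. The 7 genes below Mir26a-1 are loci of Mir124a, Mir138 and Mir199a, each with several loci in the list. Whether their reads were left out in the same way was not tested, so their low counts do not show that these microRNAs were absent or low. Of the 16 listed genes tested between the pups, 5 were higher and 3 lower in replicate 2 by the exact binomial test, with a median log2 ratio of 0.00. Among all 390 genes tested, 62 were higher and 56 lower, so 30.3% were called. The share called was 78.0% among the 50 genes with 10000 or more counts in each library.

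**Figure D4:**
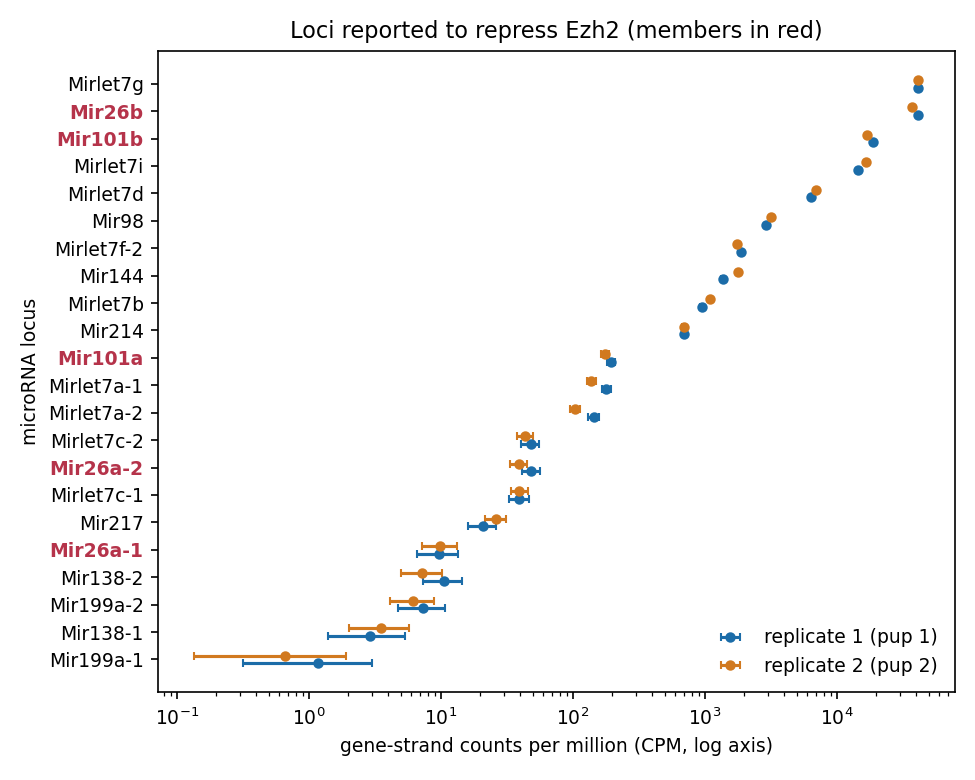
CPM on a log axis for the 5 loci (red names) and the listed microRNA genes with a count in both libraries, 1 point per pup with its exact 95% interval for counting error. Mir26b and Mir101b come next after Mirlet7g by mean level, Mir101a lies near the middle, and Mir26a-2 and Mir26a-1 lie lower.

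The label of these loci as repressors of Ezh2 was set against the sequence of the Ezh2 messenger RNA, whose level these libraries do not measure. Its longest annotated 3′ UTR in GENCODE M21 has 402 bases and was searched on the transcript strand for the 7 letters that pair with each seed: TACTTGA for miR-26a-5p and miR-26b-5p, GTACTGT for miR-101a-3p and TACTGTA for miR-101b-3p. GTACTGT and TACTGTA share 6 letters and can overlap. The Ezh2 matches are shown with their flanks, with the match in capitals.
miR-26 match, chr6:47530286-47530307, minus strand: atttgaataaagaaTACTTGAa
miR-101a match near the stop codon, chr6:47530475-47530496, minus strand: ttcaggaaccttgaGTACTGTg
miR-101a match further on, chr6:47530420-47530441, minus strand: tctgaatttgcaaaGTACTGTa
miR-101b match, chr6:47530419-47530440, minus strand: ctgaatttgcaaagTACTGTAa

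The Ezh2 3′ UTR held 1 match for miR-26, at bases 248 to 254 after the stop codon, and 2 for miR-101a-3p, at bases 59 to 65 and 114 to 120. The single match for miR-101b-3p, at bases 115 to 121, overlaps the later miR-101a match by 6 bases, so, with these annotated starts, the first miR-101 match pairs with the seed of miR-101a-3p only. Among 942 genes whose longest 3′ UTR was within 10% of this length, 3.08% held TACTTGA, 2.65% held GTACTGT and 2.34% held TACTGTA. Over the 3′ UTRs of 21020 genes the shares were 9.67%, 9.39% and 12.2%. A match describes the letters and not a site that was shown to act.

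The same motifs were counted in other subunits of the complex and in the host genes. Suz12 held 1 TACTTGA match, as 12.5% of 3′ UTRs of like length did, and Eed held 1 GTACTGT match, as 2.97% did, while Ezh1, the paralog of Ezh2, held none of the motifs. Of the Mir26 hosts, Ctdsp2 held 1 TACTTGA match in a 3′ UTR of 3489 bases, where 22.9% of 3′ UTRs of like length held it, and Ctdsp1 and Ctdspl held no TACTTGA match in their longest 3′ UTR. Ctdspl held 1 TACTGTA match, as 26.7% of 3′ UTRs of like length did, and Rcl1, the host of Mir101b, held none of the motifs.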

How the data were processed

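The authors deposited raw read counts for microRNA genes, with 1 file for each library. Assembly mm10 and GENCODE M4 are named in the text beside the files. No aligner, mismatch limit, trimming or counter is named there (not given in the sources used here). The columns have no header: from their totals they hold counts without strand, on the gene strand and on the opposite strand. Gene-strand counts were used. Reads outside microRNA genes (8.87% and 9.92% of uniquely mapped reads) stayed out of library sizes. Reads at several loci were 25.2% and 24.7% of all reads.

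Symbols came from GENCODE M21 (1894 of 1973 identifiers matched, and the others held 0 counts) and sequences from RefSeq (GRCm38.p6). Shared stretches were searched in 2238 microRNA hairpins of RefSeq and GENCODE, not in the whole genome. Tests used scipy 1.17.1 and edgeR 4.0.16; DESeq2 1.42.0 gave alternative size factors. The binomial comparison was checked on simulated counts that held counting error only, so the check does not cover the spread between pups. A quasi-likelihood test was not possible with 1 group. The loci, the lists and the rule for named genes (the 5 loci, their hosts and neighbours, the most alike gene, genes of the same seed and the 4 highest of the Ezh2 list) were chosen with earlier results of these data known. The 3′ UTR matches, mismatch counts and limit of 10000 counts were added later. Alternatives were library sizes, strand, filters, noise model and each pup alone. Pups are biological replicates of 1 litter, and n = 2 limits every SD.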

Additional observations from a re-analysis of the deposited data

How the results depend on the processing

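Over the 26 results recomputed, 127 of 153 alternatives kept the direction and the side of the threshold, or moved a value by less than the SD between the pups. Part of this count was fixed in advance. With 2 pups, leaving either out moves a mean over the pups by less than their SD, whatever the values are. The count of 127 is therefore no measure of robustness. Levels depend on the library size by construction. Without Mir122 in it, the mean CPM was 15.02 for Mir26a-1, 66.9 for Mir26a-2, 59919 for Mir26b, 283 for Mir101a, 27647 for Mir101b, 60001 for the Mir26 family and 27930 for the Mir101 family. Per 1000000 of all reads, the same levels were 5.45, 24.4, 21808, 103, 10062, 21838 and 10165. Per 1000000 uniquely mapped reads they were 8.86 for Mir26a-1, 35389 for Mir26b, 167 for Mir101a, 16328 for Mir101b, 35437 for the Mir26 family and 16495 for the Mir101 family. Without regard to strand, Mir26a-1 had 9.33 CPM. Scaled to all reads, the log2 ratio between the pups was -0.0099 for Mir26a-1 (main value 0.04) and -0.21 for Mir101a. Mir101a then passed the exact binomial test (adjusted p = 0.0195, against 0.107 in the main analysis), and it passed under no other setting. Mir26b and Mir101b stayed lower in replicate 2 under every scaling, from -0.21 and -0.20 with all reads to -0.13 and -0.12 without Mir122. In the negative binomial test of edgeR, their ratios of -0.16 and -0.15 had an adjusted p of 1, and 2 genes were called in place of 118 (12 at an unadjusted p under 0.05); its dispersion came from the same 2 libraries. Shares within a family and ratios between loci kept their values without regard to strand, as they had to with 0 counts of the 5 loci on the opposite strand. No paired analysis was possible because the series has 1 group. Reads at several loci limit Mir26a and may limit Mir101a, and counts of 33 to 177 limit any comparison of Mir26a-1 and Mir26a-2 between the pups.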

Other observations

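Loci with an arm that also lies in the hairpin of another locus were counted over the table, among the genes with a RefSeq arm, as values with no test. Of 104 such loci, 37 had at least 10 counts in both libraries, with a median of 43.0 CPM, and 0 reached 10000 CPM. Mir26a-2 (43.6 CPM) stood close to that median, and Mir26a-1 (9.78 CPM) stood below it. Of 812 loci with no such arm, 249 had at least 10 counts in both libraries, with a median of 224 CPM, and 18 reached 10000 CPM, Mir26b and Mir101b among them. Mir101a (185 CPM) was counted with these loci and stood near their median, but its hairpin holds the whole miR-101c arm, and reads lost to Mir101c were not tested.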
